A study of Mus musculus and Homo sapiens with 10 samples.

Results

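L1_Mus1 is one of the subfamilies into which the LINE-1 (L1) retrotransposons of the mouse genome are sorted. Its members were taken by name from the deposited list of single mouse L1 copies, all of at least 5000 bp, and 704 of the 14949 copies in that list carry the name. The study profiled L1 regulation in embryonic stem (ES) cells, and 6 of its 10 samples bear on these copies. Cells of the C57BL/6 line ES3 that overexpressed HA-tagged Gm6871 from a doxycycline-induced vector gave 1 chromatin immunoprecipitation (ChIP) library with an anti-HA antibody at day 2 of induction. Wild-type cells of the 129S4/SvJae line J1 gave 1 ChIP library with a rabbit antibody to KAP1. For RNA, ES3 cells were taken 4 days after transduction with a lentivirus that carried an empty hairpin vector (control, 2 libraries) or a hairpin against Gm6871 (knockdown, 2 libraries). Cytoplasmic poly(A) RNA was sequenced. Coordinates are those of the deposited files (build mm9), and no gene annotation of that build was used here. The ChIP thus shows overexpressed, tagged protein, and the labels give no sequence for the hairpin.

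L1 elements encode the proteins that copy their own RNA back into the genome, and most copies are shortened at the end where transcription starts. KRAB zinc finger proteins such as Gm6871 bind DNA of transposable elements by sequence and recruit KAP1 (Trim28), a scaffold that brings in the histone methyltransferase Setdb1 and thereby silences the element. In mouse, the subfamilies with copies known to be still able to move are L1Md_A, L1Md_T and L1Md_Gf, and L1_Mus1 is not counted among them.

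The L1_Mus1 copies were 5002 to 7547 bp long, with a median of 5992 bp, and 344 of them (48.9%) reached 6000 bp. L1Md_F2 and L1Md_F3 copies had medians of 5742 and 5839 bp. L1_Mus1 copies lay on 21 chromosomes, and 117 of them (16.6%) were on X, against 11.5% of all L1 copies. The nearest other L1 copy of the list lay at a median of 27023 bp. Only 23 copies had a neighbour within 1000 bp, and in 0 of these cases was that neighbour another L1_Mus1 copy.

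The RNA libraries held between 37198636 and 66050821 reads, so that 1 read on a copy of 6 kb was worth between 0.00252 and 0.00448 RPKM (reads scaled to the length of the copy and to the size of the library). Of 12 ES cell markers, 11 had a mean RPKM of at least 0.5. The pluripotency factors Pou5f1, Nanog and Sox2 ranged over 888 to 1175, 168 to 194 and 240 to 300.2 RPKM, while the listed entry of Esrrb was near 0. Feeder fibroblast markers (10 of 10 in the table, 4 of them at a mean of at least 0.5) summed to 26.1 and 26.6 RPKM in control 1 and knockdown 1 and to 2.45 and 1.95 in control 2 and knockdown 2. For 9 of the 10, both libraries numbered 1 lay above both numbered 2, the exception being Thy1 at 1.38 and 1.92 RPKM (controls) and 1.84 and 1.36 RPKM (knockdown). For 0 of the 10 did control and knockdown separate, and the part of these cells in the L1 values was not tested. In such bulk RNA, fewer cells of a type and less RNA per cell cannot be told apart. Primitive endoderm markers (7 of 7 in the table, 3 of them at a mean of at least 0.5) had lower sums with the hairpin. They summed to 3.03 and 4.42 RPKM in controls 1 and 2 and to 2.25 and 2.44 RPKM in knockdown libraries 1 and 2. Both knockdown libraries lay below both controls for 6 of the 7 (Gata4, Sox17, Foxa2, Pdgfra, Cubn and Dab2, but not Gata6), and their part in the differences between knockdown and control was not tested. Of these, Sox17, Foxa2, Pdgfra and Dab2 had a mean under 0.5 RPKM. The share of all genes that separate by hairpin or by library number is not given here, so the marker counts have no background. Gm6871 had 0 entries in the RNA table, so the knockdown was not checked. Nothing in the labels calls the replicates separate cultures, and the p-values may therefore reflect technical spread alone.

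Gm6871 was found on 41 of the 704 L1_Mus1 copies. This is 5.82% (exact 95% interval 4.21 to 7.82%), beside 1.93% of all 14949 L1 copies. Each of the 41 copies had exactly 1 peak. The shares were 5.41% (3.87 to 7.32%) in L1Md_F3, 4.38% (3.74 to 5.09%) in L1Md_F2 and 1.23% (0.336 to 3.12%, 4 of 325 copies) in L1_Mus2. The interval of L1_Mus1 overlapped those of L1Md_F3 and L1Md_F2 and lay above that of L1_Mus2. These intervals cover counting error only, since each ChIP was 1 library, and no test was made between subfamilies. The 704 copies were 4.71% of the L1 list.

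**Figure D1:**
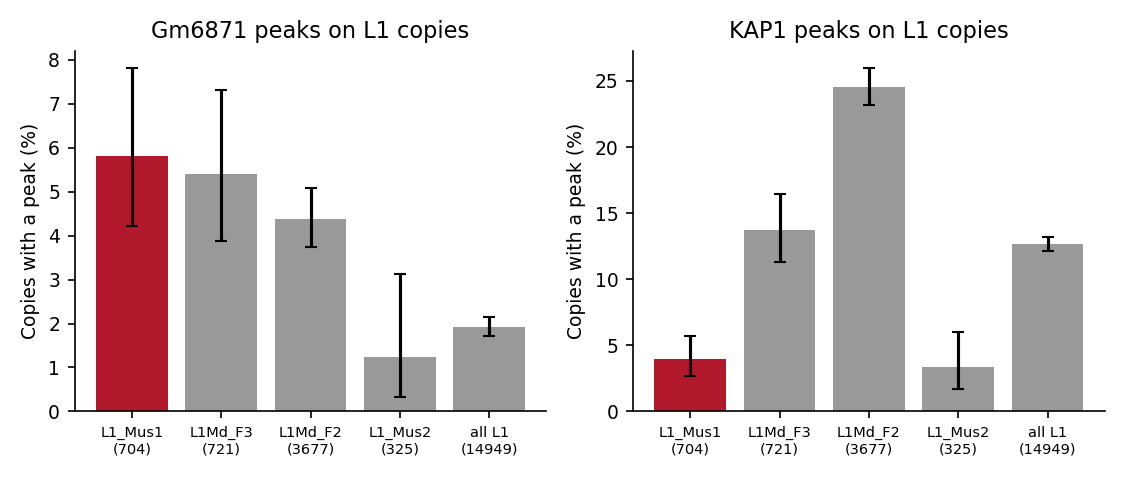
Share of L1 copies with a peak overlapping by at least 1 bp (left, Gm6871; right, KAP1) for L1_Mus1 (red), L1Md_F3, L1Md_F2, L1_Mus2 and all L1 copies, with the number of copies in brackets. Bars start at 0 and error bars are exact 95% binomial intervals; L1_Mus1 stands at 5.82% for Gm6871 and 3.98% for KAP1.

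The Gm6871 peaks sat at a nearly fixed place in the L1_Mus1 copies. The files give no strand, so the distance of each peak's midpoint to both ends of the copy was taken. To the farther end the median was 5016 bp, with the middle 50% of peaks between 4972 and 5053 bp, a width of 81 bp. To the nearer end the median was 1117 bp and the middle 50% spanned 902 to 1235 bp, a width of 334 bp. The distance to the farther end was thus the tighter of the pair, while the distance to the nearer end grew with the length of the copy. On 36 of the 41 copies (87.8%) the farther end lay 4800 to 5200 bp away. The nearer end was the lower-coordinate end in 21 copies and the higher in 20.

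Among short copies both kinds of placement were seen. In the copy at chromosome 5, 55488867 to 55493972, the peak lay only 81 bp from the nearer end and 5024 bp from the other. For the copy at chromosome 14, 25169959 to 25175065, the distances were 260 and 4847 bp. Both copies are just over 5100 bp long, so the peak lay close to the edge of the element. In 3 copies the peak was nearer to the farther end than 4300 bp. These were chromosome 1, 15812748 to 15818083 (4188 bp), chromosome 5, 105632125 to 105637195 (4015 bp), and chromosome 5, 86741910 to 86746933 (3770 bp). In them the distance to the nearer end was 1147, 1055 and 1253 bp, like that in copies of full length. The copies named in this paragraph were chosen after their values were seen.

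**Figure D2:**
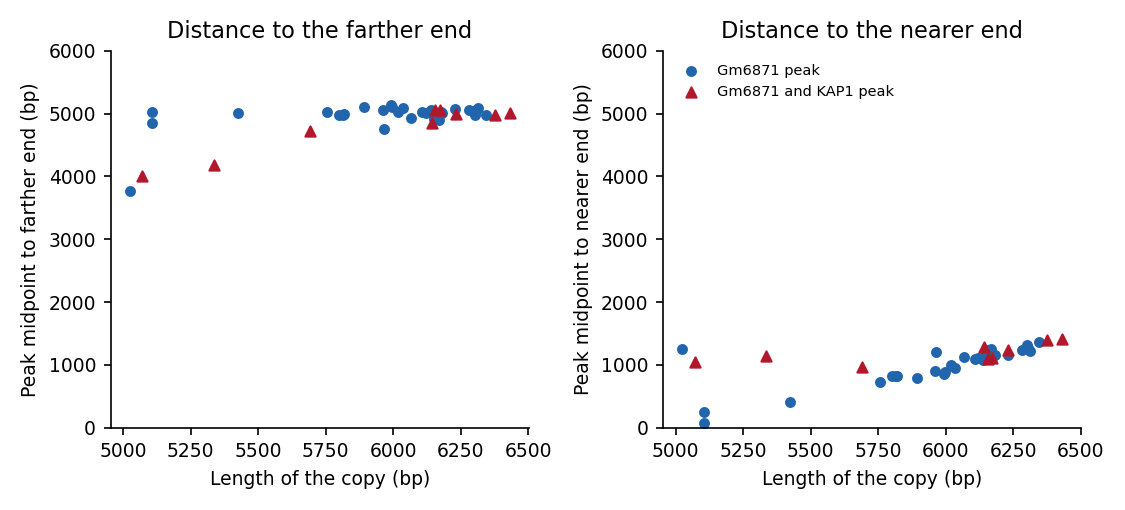
Distance from the midpoint of the Gm6871 peak to the farther end (left) and the nearer end (right) of the copy, in bp, against the length of the copy, for the 41 L1_Mus1 copies with a peak; red triangles mark the 9 that also had a KAP1 peak. The left panel is flat near 5016 bp apart from a few copies, and in the right panel the distance rises with length.

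L1Md_F2 and L1Md_F3 showed a second placement more often. Their peaks lay at a median of 1142 and 1138 bp from the nearer end, close to the value in L1_Mus1. The farther end was 4800 to 5200 bp away for 57.8% of L1Md_F2 and 51.3% of L1Md_F3 peaks. It was 3900 to 4300 bp away for 32.9% (53 of 161) and 38.5% (15 of 39), against 4.88% (2 of 41) in L1_Mus1. Copies below 5500 bp made up 6 of the 41 copies with a Gm6871 peak in L1_Mus1. They made up 62 of 161 in L1Md_F2 and 17 of 39 in L1Md_F3. The lengths of the copies with a peak thus also differed, and their part in the placement was not tested. The windows were set after the distances were seen, and the difference between subfamilies is given without a test.

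By length, the share of L1_Mus1 copies with a Gm6871 peak was 3.75% (6 of 160, interval 1.39 to 7.98%) below 5500 bp and 5.00% (10 of 200, 2.42 to 9.003%) from 5500 to 6000 bp. It was 8.04% (25 of 311, 5.27 to 11.6%) from 6000 to 6500 bp and 0 of 33 above that, which allows a share of up to 9.09% when 3 counts are taken as the limit of a count of 0 (exact 95% upper bound 10.6%). The intervals of the first 3 bands overlap.

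Peak scores on L1_Mus1 ran from 50.08 to 178.85, with a median of 68.44. The scores are the authors', and they rank peaks only within a list. L1Md_F2 peaks had a median of 65.54 and the whole list one of 68.1. The highest score on an L1_Mus1 copy was that of the peak at chromosome 17, 79526998 to 79527587. The next 4 were on the copies at chromosome 1, 15812748 (152.23), chromosome 3, 96665385 (142.16), chromosome 18, 3405945 (137.55) and chromosome 2, 20712303 (128.37). Of these 5 copies, 3 also had a KAP1 peak. The lowest score among the 41 was on the copy at chromosome 4, 3925238 to 3931376, and the lowest in the whole list was 50.01.

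A KAP1 peak lay on 28 of 704 copies, 3.98% (exact 95% interval 2.66 to 5.70%), beside 12.7% of all L1 copies. L1_Mus2 had 3.38% (1.70 to 5.98%), L1Md_F3 13.7% (11.3 to 16.5%) and L1Md_F2 24.6% (23.2 to 26.0%). The interval of L1_Mus1 overlapped that of L1_Mus2 and lay below those of the other two. The order of the KAP1 and Gm6871 counts depended on the rule: within 1000 bp of the copy they were 41 and 42, and at a peak score of at least 100 they were 12 and 10. There were 31 KAP1 peaks on the 28 copies, since 3 copies had 2 each. In L1Md_F2, 76.4% of KAP1 peaks crossed an end of the copy, and in L1_Mus1 12 of 31 (38.7%) did. The midpoint was under 500 bp from the nearer end for 80.9% of KAP1 peaks on L1Md_F2 and for 45.2% (14 of 31) on L1_Mus1, where a midpoint outside the copy is included.

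The share of L1_Mus1 copies with a KAP1 peak was higher among copies with Gm6871 than among those without, although most copies with KAP1 had no Gm6871 peak. Both proteins had a peak on 9 copies, 1.28% of the subfamily, beside 0.696% of all L1 copies. The counts were 67 of 3677 copies in L1Md_F2, 13 of 721 in L1Md_F3 and 0 of 325 in L1_Mus2. Among the 41 copies with Gm6871, the 9 make 22.0% (10.6 to 37.6%). Among the 663 without, 19 had a KAP1 peak, which is 2.87% (1.73 to 4.44%), and the intervals, which cover counting error only, do not overlap. For all L1 copies the corresponding shares were 36.1% and 12.2%. They were 41.6% and 23.8% in L1Md_F2, 33.3% and 12.6% in L1Md_F3, and 0% (0 of 4) and 3.43% in L1_Mus2. The cells were of different lines and strains, so both proteins were never measured in the same cells.

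On 8 of the 9 copies the Gm6871 and KAP1 peaks overlapped each other. The copy at chromosome 6, 8275825 to 8282201, had midpoints 82 bp apart, and the one at chromosome 9, 80389603 to 80396034, had them 222 bp apart. At chromosome 18, 3405945 to 3412087, a KAP1 peak from 3405615 to 3407965 contained the whole Gm6871 peak from 3406977 to 3407490. Its score of 872.43 was the highest of any KAP1 peak on L1_Mus1. The next 2, at 255 and 223.27, were on the copies at chromosome 9, 80389603, and chromosome 16, 9231336, which belong to the same 9. The ninth copy, at chromosome 5, 105632125, had its KAP1 peak at the opposite end, 3557 bp away from the Gm6871 peak.

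The position of the KAP1 peaks was compared between copies with and without Gm6871, without a test. On the 9 copies with both, the median distance of the KAP1 midpoint to the nearer end was 1000 bp over 11 peaks, with a median score of 166.56. On the other 19 copies it was 476 bp over 20 peaks, with a median score of 82.27. The ranges overlap widely, from 147 bp outside the copy to 1645 bp inside it for the first set and from 433 bp outside to 1659 bp inside for the other. Of the 41 copies with Gm6871, 32 had no KAP1 peak.

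Most L1_Mus1 copies gave little RNA. The median copy stood at 0.0221 and 0.0311 RPKM in controls 1 and 2 and at 0.0275 and 0.0333 in knockdown libraries 1 and 2. Between 7 and 40 copies had 0 reads in a library, the most in control 1, which was the shallowest. A mean of at least 0.1 RPKM over the 4 libraries, the level used for testing, was reached by 73 copies (10.4%), beside 21.2% of all L1 copies. In all, 10838, 23396, 16720 and 25452 reads fell on the subfamily in controls 1 and 2 and knockdown libraries 1 and 2, which was 2.22 to 2.47% of the reads on L1. The placement of reads that match many positions is described in no source used here, and it bears on every level of a repeat copy.

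The reads were spread very unevenly. A single copy, at chromosome 7, 20596144 to 20601689, took 27.4% and 19.0% of the L1_Mus1 reads with the empty vector and 22.3% and 16.5% with the hairpin. Its level was 14.4 and 12.7 RPKM with the empty vector and 13.1 and 11.4 RPKM with the hairpin, from 2970, 4452, 3723 and 4193 reads. It had neither a Gm6871 nor a KAP1 peak. The 10 highest copies together took 41.8 to 46.9% of the reads in each library. Ranked 3 was the copy at chromosome 16, 68886942 to 68893823, which stood at 2.47, 2.33, 2.80 and 2.41 RPKM in controls 1 and 2 and knockdown 1 and 2, with the groups overlapping.

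Another 3 of the 10 highest copies had the largest ratios of control 2 to control 1 among the 10. Their controls also differed more than the group means did. That at chromosome 1, 152142376 to 152148330, had 1.23 and 3.84 RPKM with the empty vector and 2.39 and 2.96 with the hairpin. At chromosome X, 147713252 to 147718544, the levels were 1.06 and 3.43 RPKM with the empty vector and 1.95 and 2.25 with the hairpin. At chromosome 6, 11329246 to 11334260, they were 0.397 and 1.34 RPKM with the empty vector and 0.698 and 0.909 with the hairpin. In each, control 1 was lowest and control 2 highest, and control 2 was 3.13, 3.23 and 3.38 times control 1. The mean over all L1Md_T copies, a young subfamily, had a ratio of 3.19.

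The remaining high copies had smaller differences or were high in knockdown library 2. The copy at chromosome 5, 39854315 to 39860502, ranked 10, stood at 0.573 and 0.654 RPKM with the empty vector and 0.638 and 0.636 with the hairpin. At chromosome X, 35764522 to 35770845, the levels were 0.400 and 0.359 with the empty vector and 0.547 and 1.33 with the hairpin, so that both knockdown libraries were above both controls. Rn28s1, the 28S ribosomal RNA entry, was also highest in knockdown library 2, at 263 and 66.2 RPKM with the empty vector and 209 and 1128 with the hairpin, and its part in this value was not tested.

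**Figure D3:**
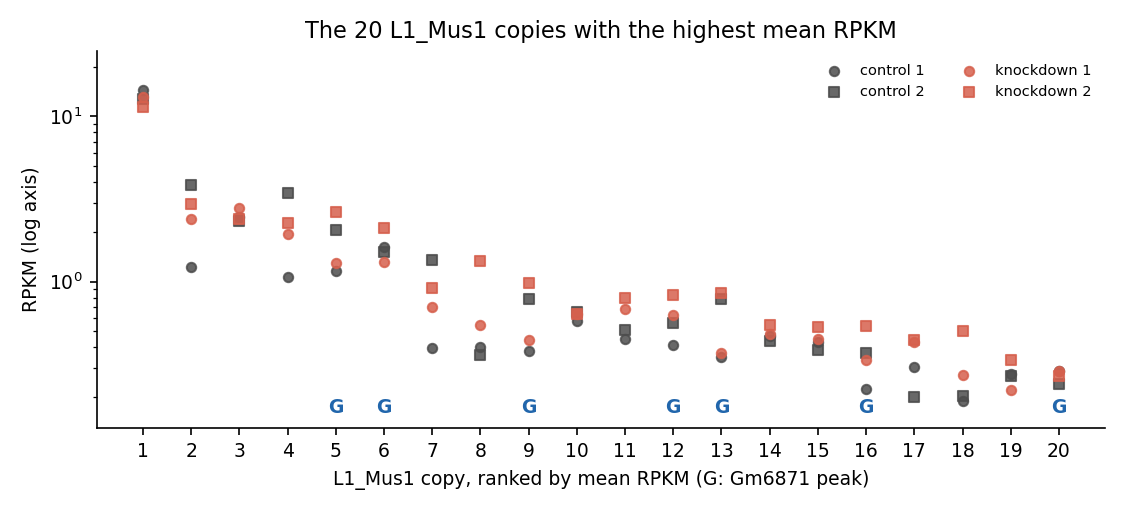
RPKM (log axis) in each of the 4 libraries for the 20 L1_Mus1 copies with the highest mean, in order of rank; grey, controls; red, knockdown; circles, library 1; squares, library 2; G marks a Gm6871 peak. The first copy lies above 11 RPKM in all 4 libraries, 7 of the 20 copies carry a Gm6871 peak, and control and knockdown symbols are mixed for most copies.

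Copies with a Gm6871 peak were found more often among those with RNA. A mean of at least 0.1 RPKM was reached by 14 of the 41 copies with a peak (34.1%, 20.1 to 50.6%) and by 59 of the 663 without (8.90%, 6.84 to 11.3%). Of the 20 highest copies 7 had a peak. Among copies of at least 6000 bp the numbers were 7 of 25 (28.0%, 12.1 to 49.4%) and 29 of 319 (9.09%, 6.17 to 12.8%), with intervals that overlap slightly. The copies share libraries and are not replicates of a condition, so the intervals describe these libraries only.

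Expressed copies with Gm6871 included those ranked 5, 6 and 9. At chromosome 2, 177777623 to 177783790, the levels were 1.15 and 2.04 RPKM with the empty vector and 1.29 and 2.65 with the hairpin. At chromosome 3, 96665385 to 96671076, they were 1.63 and 1.51 RPKM with the empty vector and 1.31 and 2.11 with the hairpin. A further one, at chromosome 17, 22033364 to 22039595, had 0.380 and 0.782 RPKM with the empty vector and 0.440 and 0.984 with the hairpin. In all 3 the groups overlapped, and knockdown library 2 was highest. The last 2 also had a KAP1 peak.

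Further down, the copy at chromosome 2, 20712303 to 20718321, stood at 0.415 and 0.559 RPKM with the empty vector and at 0.630 and 0.825 with the hairpin, with both knockdown libraries above both controls. At chromosome 8, 4756081 to 4762072, the levels were 0.350 and 0.779 RPKM with the empty vector and 0.367 and 0.857 with the hairpin, so that libraries with the same number lay together. The one at chromosome 17, 79526391 to 79532351, which has the highest Gm6871 score, did the same, at 0.0947 and 0.317 RPKM with the empty vector and 0.114 and 0.267 with the hairpin. The copy at chromosome 2, 22958261 to 22964060, had 0.222 and 0.369 RPKM with the empty vector and 0.335 and 0.540 with the hairpin, and that at chromosome 6, 73806806 to 73812229, had 0.287 and 0.240 against 0.287 and 0.268. Chromosome 15, 6622079 to 6628199, gave 0.154 and 0.174 against 0.184 and 0.195 RPKM, without overlap, and chromosome 13, 78198076 to 78203968, gave 0.123 and 0.175 against 0.106 and 0.152.

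Of the 9 copies with both peaks, 5 were among the tested copies. Beside those given above these were chromosome 1, 11225209 to 11231380 (0.152 and 0.165 RPKM in the controls, 0.202 and 0.262 in the knockdown), chromosome 1, 15812748 (0.151 and 0.217 against 0.193 and 0.190), and chromosome 18, 3405945 (0.131 and 0.207 against 0.206 and 0.140). The groups overlapped in the last 2 and not in the first. The other 4 copies with both peaks were at 0.0846 RPKM or less in every library.

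Averaged over copies as log2(RPKM + 0.1), those with a Gm6871 peak lay above those without by 0.46 and 0.50 with the empty vector and by 0.47 and 0.57 with the hairpin. This gap was 0.48 ± 0.03 (SD, n = 2) with the empty vector and 0.52 ± 0.07 (SD, n = 2) with the hairpin, a difference of 0.034 (exact permutation test over libraries, two-sided, p = 0.667, where 0.333 is the smallest p that 2 against 2 libraries can give). The gap was thus already there in the controls. It was -0.02 in place of 0.034 without knockdown library 2. Over all 41 copies with a peak, 28 (68.3%) were above 0 in their log2 difference between knockdown and control, with a median of 0.05, beside 61.1% and a median of 0.03 for the 663 without and 62.8% and 0.04 for all L1 copies.

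**Figure D4:**
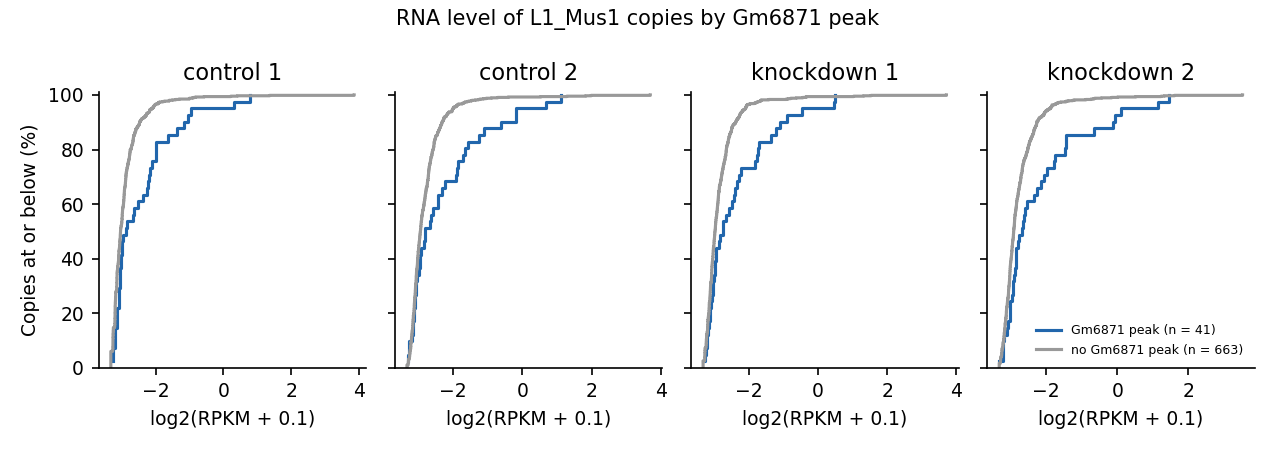
Cumulative share of L1_Mus1 copies at or below a given RNA level, as log2(RPKM + 0.1), in each library, for the 41 copies with a Gm6871 peak (blue) and the 663 without (grey). In all 4 libraries the blue curve lies to the right of the grey one, by 0.46 to 0.57 on average.

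The knockdown was compared with the control to see what Gm6871 does to L1 RNA. As a subfamily, L1_Mus1 had a mean of 0.0709 and 0.0905 RPKM in the controls (0.0807 ± 0.0138, SD, n = 2) and 0.0789 and 0.0933 RPKM in the knockdown (0.0861 ± 0.0102, SD, n = 2). The groups overlapped. The log2 difference was 0.09 (SE 0.18, limma adjusted p = 0.881 over 23 subfamilies, of which 0% were called; exact permutation over libraries, two-sided, p = 0.667). It turned to -0.07 without control 1 and to -0.02 without knockdown library 2. L1Md_F2, L1Md_F3 and L1_Mus2 had differences of 0.14, 0.19 and -0.14 in the same fit.

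No single L1_Mus1 copy passed the test. By limma on log2(RPKM + 0.1), 0 of the 73 tested copies were called higher and 0 lower, beside 0.0947% called higher and 0% called lower among all 3167 tested L1 copies. At an unadjusted p under 0.05 there was 1 copy, and voom on whole reads called 0 with 1 such copy. Without control 2, 1 L1_Mus1 copy was called (chromosome 1, 4968702, log2 difference 0.61, limma adjusted p = 0.0263). In that fit 1567 of all 3167 tested copies were called.

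Ranked by p, the first 5 copies on the higher side had log2 differences between 0.50 and 1.01, each with a limma adjusted p of 1.00. First was that at chromosome X, 35764522, described above, with a difference of 1.01 and an SE of 0.47 by limma (adjusted p = 1.00). Without knockdown library 2 its difference was 0.44. At chromosome X, 72958184 to 72964449, the levels were 0.189 and 0.203 RPKM with the empty vector and 0.273 and 0.5002 with the hairpin. At chromosome 2, 181675030 to 181681129, they were 0.304 and 0.2003 RPKM with the empty vector and 0.430 and 0.442 with the hairpin. Next came the copy at chromosome 18, 28204418 to 28210629, with 0.446 and 0.511 RPKM with the empty vector and 0.683 and 0.797 with the hairpin. The fifth was the copy at chromosome 2, 20712303, which has a Gm6871 peak and a log2 difference of 0.50. In all 5 the groups did not overlap, which the choice by smallest p favours. Both knockdown libraries lay above both controls in 23.3% of tested L1_Mus1 copies and 5.05% of all tested L1 copies.

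The 5 on the lower side were closer to 0, between -0.15 and -0.27, again with a limma adjusted p of 1.00. They included the highest copy of the subfamily, at chromosome 7, 20596144 (-0.15, SE 0.28), and a copy with a Gm6871 peak at chromosome 13, 15823548 to 15829722. The latter had 0.118 and 0.116 RPKM with the empty vector and 0.0787 and 0.0956 with the hairpin, with no overlap. The other 3 were at chromosome X, 72723507 (-0.19), chromosome 6, 27504234 (-0.27), and chromosome X, 111275491 (-0.25). Those at 72723507 and 27504234 changed sign when 1 library was left out. With 1 library left out, the difference ranged from -0.24 to -0.05 for the copy at 20596144 (smallest without knockdown library 2) and from -0.36 to -0.14 for that at 111275491 (smallest without knockdown library 1).

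Among the 73 tested copies, 17 (23.3%) had both knockdown libraries above both controls and 3 (4.11%) had both below, beside 5.05% and 1.01% of all tested L1 copies. The log2 difference was above 0 in 48 of the 73, with a median of 0.06, beside 69.0% and 0.07 for all tested copies, and in 37 after median centring of the libraries. With no filter on level, 153 of all 704 copies had both knockdown libraries above both controls and 67 of 704 had both below. Over all 14949 L1 copies the counts were 1552 (10.4%) and 689 (4.61%). The tested L1 copies were mostly L1Md_T (78.8%), in which the controls lay far apart. In L1Md_F2, 21.7% of tested copies had both knockdown libraries above both controls, in L1Md_F3 18.3%, in L1_Mus2 38.6% (17 of 44, with 0 below) and in L1Md_T 0.400%. These shares were not tested against each other.

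The control libraries lay much closer together in L1_Mus1 than in the list as a whole. The median ratio of control 2 to control 1 was 1.15 over the 73 tested L1_Mus1 copies, 1.26 in L1Md_F2, 1.06 in L1_Mus2, 1.63 in L1Md_F3, 3.54 in L1Md_T and 3.27 over all tested copies. Control 2 was more than 2 times control 1 in 13 of the 73 (17.8%), against 81.7% of all. Between the knockdown libraries, the median ratio of library 2 to library 1 was 1.30 in L1_Mus1 and 1.21 over all. This matters for the test, since limma took the spread from copies of like level in the whole list. The SE it used had a median of 0.56 over the L1_Mus1 copies. The SE from each copy's own libraries had a median of 0.21 and was the smaller in 65 of 73. Over all tested L1 copies these medians were 0.62 for the SE used and 0.51 for the own SE. The share of all copies with the smaller own SE is not given here, so the count of 65 has no background. With each copy's own spread, an alternative chosen after seeing the data, 0 copies were called and 1 had an unadjusted p under 0.05.

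**Figure D5:**
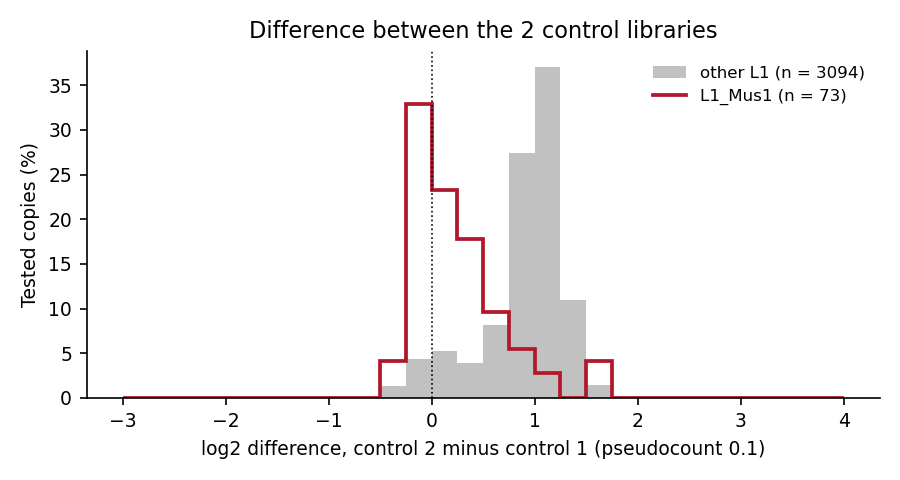
Distribution of the log2 difference between control 2 and control 1 (pseudocount 0.1 RPKM) for the 73 tested L1_Mus1 copies (red line) and the other tested L1 copies (grey), as a percentage of copies per bin. L1_Mus1 peaks near 0, and most other copies lie near 1.

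The genes of the silencing pathway did not pass the test either. Of 22 genes in the list, 18 had a mean of at least 0.5 RPKM, and 0 were called by limma, beside 0% of 11658 genes, of which 223 had an unadjusted p under 0.05. The list had 1 gene at an unadjusted p under 0.05, Dnmt3b, a de novo DNA methyltransferase. The log2 difference of its listed entry was -0.91 (limma adjusted p = 0.997). That entry stood at 2.12 and 2.87 RPKM with the empty vector and 1.47 and 0.765 with the hairpin. Each gene of the list was read from 1 entry, so -0.91 need not be the change of the gene as a whole. The list's median log2 difference was -0.15, beside -0.0026 over all genes, with 14 below 0 and 4 above. Without knockdown library 2 the list's median was -0.04, with 11 below 0 and 7 above, and without knockdown library 1 it was -0.23. Trim28, which encodes KAP1, stood at 627 and 960 RPKM with the empty vector and 711 and 548 with the hairpin, and the groups overlapped. The listed entries of Setdb1 and of the maintenance methyltransferase Dnmt1 were at 0.256 and 0.149 RPKM or less in every library. Both genes have several RefSeq transcripts in the table, so their levels cannot be read from single entries.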

How the data were processed

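L1_Mus1 rows were taken by name from the mouse L1 table. The authors deposited RPKM values per L1 copy and per RefSeq entry, and a score per peak in 1 peak list per ChIP, whose peak names point to MACS. The submitters' processing notes name Bowtie 0.12.5 and the build mm9. No source used here describes read placement, strand, peak caller settings or the use of the inputs, which were not analysed here. The name of the KAP1 peak list holds the word uniq, which may refer to uniquely placed reads, and that of the Gm6871 list does not. Whether such a rule affects the KAP1 shares on repeat copies was not tested. With the length of a copy, a single total per library turned all values into whole reads, which served for depth and voom. RNA columns headed WT and KO were taken as empty vector and Gm6871 hairpin, with their replicate numbers.

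A peak was counted on a copy from 1 bp of overlap, with exact binomial intervals. The hairpin and empty-vector libraries entered limma 3.58.1 (R 4.3.3) as log2(RPKM + pseudocount), using a variance trend for copies and genes and Benjamini-Hochberg adjustment at 0.05 over all features. Pseudocount and minimum mean were 0.1 for copies and 0.5 for genes. Subfamily means of at least 10 copies used a pseudocount of 0.01. A difference on this scale understates changes of low copies. The script was tested on simulated data in which the controls shared the same mean level, so that test does not show its power at the spread of these libraries. Of 36083 RefSeq entries, 27884 matched a symbol of the GRCm38.p6 table. The copies named were those past the threshold, the 5 smallest p on each side, the 10 highest, those with both peaks, the 5 highest Gm6871 and 3 highest KAP1 scores, and the tested copies with Gm6871. Members, lists and tests were chosen with earlier results of these data known. No sequence is printed, as no mm9 genome was used here.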

Additional observations from a re-analysis of the deposited data

How the results depend on the processing

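The count of L1_Mus1 copies called by limma was 0 with a pseudocount of 0.5 or 0.01, no filter, a minimum mean of 0.5 RPKM, no variance trend, median centring, voom or each copy's own spread, and 0 to 1 with a library left out (1 without control 2). The subfamily difference stayed above 0 and uncalled with other pseudocounts, with reads per summed length, without the 10 highest copies and after median centring. It ranged from -0.07 (without control 1) to 0.24 with a library left out. For the gap between copies with and without Gm6871, the change ranged from -0.017 (without knockdown library 2) to 0.086. Of the named copies, those at chromosome X, 72723507, and chromosome 6, 27504234, changed sign, with ranges from -0.41 to 0.030 and from -0.64 to 0.11. Silencing genes had 0 calls in every such fit. At a peak score of at least 100 there were 10 copies with Gm6871, 12 with KAP1 and 3 with both. The median distance of the Gm6871 peaks to the nearer end lay between 1117 and 1184 bp. This held for all peaks, for those with a score of at least 100 and for copies of at least 6000 bp. With the replicate number as a block, the count of calls was 0 and the subfamily difference of 0.09 had a limma adjusted p of 0.739. Deviations of same-numbered libraries correlated at -0.0680 over tested L1 copies, 0.288 over tested L1_Mus1 copies and 0.292 over 11658 tested genes. With 2 pairs this does not show that the numbers pair the samples.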

Other observations

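L1_Mus1 copies on chromosome X carried no Gm6871 peak in these data. There were 0 among 117 copies, which allows a share of up to 2.56% when 3 counts are taken as the limit of a count of 0 (exact 95% upper bound 3.10%), against 41 of 587 on the other chromosomes (6.98%, exact 95% interval 5.06 to 9.36%). For all L1 copies the shares were 0.233% on X (4 of 1720) and 2.15% elsewhere (284 of 13229). KAP1 had a peak on 2 of the 117 L1_Mus1 copies on X (1.71%, 0.208 to 6.04%) and on 26 of the 587 others (4.43%, 2.91 to 6.42%), intervals that overlap. For all L1 copies the KAP1 share was 4.59% on X (79 of 1720, 3.65 to 5.69%). Elsewhere it was 13.7% (1814 of 13229, 13.1 to 14.3%), and these intervals do not overlap. Chromosomes 10, 11, 12, 19 and Y also had no Gm6871 peak on their 21, 15, 28, 19 and 1 L1_Mus1 copies. In the whole peak lists, 2.43% of Gm6871 and 2.05% of KAP1 peaks lay on X. No source used here gives the number of X chromosomes in each line.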
